A study of Homo sapiens with 3 samples.

Results

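The genes described here encode 10 defence and secretory proteins of airway epithelium: LCN2, SLPI, PI3, DEFB4A, AGR2, AZGP1, SAA1, SAA2, PIGR and CP. They were picked by gene symbol, with earlier results of these data known, from the 30866 symbols of the deposited table. Each had 1 row there, and all 10 were among the 13425 genes that reached 1 FPKM in some library, the filter used here. FPKM means fragments per kilobase of transcript and per 1000000 mapped fragments. The levels and differences of these 10 genes are therefore a description of what was picked, and they carry no test.

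RNA was sequenced from 3 populations of HCC827, an established human non-small cell lung cancer line whose EGF receptor gene carries an activating mutation. All 3 came from 1 polyclonal pool of cells transduced with ClonTracer, a library of DNA barcodes. The dual-resistant population received 2 µM erlotinib and 0.2 µM crizotinib for 10 days, and was derived from the erlotinib-resistant population. The erlotinib-resistant population had received 2 µM erlotinib for 47 days. Erlotinib inhibits the kinase of the EGF receptor and crizotinib that of MET. Vehicle-treated cells, the control, had 4 days in 0.1% DMSO. The study asked which subpopulations of the line withstand these inhibitors and what RNA they express. With 1 library per population no difference has an error estimate or a p-value, and drug, time in culture and selection of cells cannot be told apart. In bulk RNA, fewer cells that express a gene and less of its RNA per cell cannot be told apart either.

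Airway epithelium lines the lung with a film of mucus, proteins and peptides that trap, starve or kill microbes and hold back the proteases of incoming neutrophils. Part of this output is constitutive and belongs to secretory cells. Another part is switched on by inflammatory signals that act through the transcription factors NF-kB and C/EBP.

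The cells expressed the 5 epithelial markers examined, EPCAM, KRT8, KRT18, KRT19 and CDH1, at 22.8 FPKM or more in every library, and the sum of these markers was 1782 FPKM in dual-resistant cells, 3366 in erlotinib-resistant and 3675 in vehicle-treated cells. The 7 markers of leukocytes and neutrophils, cells that also make LCN2, reached at most 0.457 FPKM in any library. EPCAM stood at 41.1 FPKM in dual-resistant, 345 in erlotinib-resistant and 306 in vehicle-treated cells, and CDH1 at 22.8 FPKM in dual-resistant, 194 in erlotinib-resistant and 172 in vehicle-treated cells. The part of these epithelial differences in the results was not tested. Summed FPKM over all genes was 494817 in dual-resistant, 528920 in erlotinib-resistant and 596084 in vehicle-treated cells. By an approximate estimate, 1 FPKM in a transcript of 1 kb stood on about 43.0 fragments in dual-resistant, 47.4 in erlotinib-resistant and 68.3 in vehicle-treated cells. A value of exactly 0 may be an estimate that failed. Among genes that reached 5 FPKM in both remaining libraries, the table gives 0 for 23 of 8484 in dual-resistant cells, 11 of 8227 in erlotinib-resistant cells and 13 of 8401 in vehicle-treated cells.

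Promoters were taken from RefSeq (GRCh38.p14), from 250 bases before the gene's start to 50 bases after it, and 4 of the 10 genes matched an entry: LCN2, AGR2, AZGP1 and PIGR. LCN2 and AGR2, the genes whose windows held a match to the strings below, are shown. All 4 genes stood far lower in dual-resistant cells than in vehicle. The fold was 166 for LCN2, 255 for AGR2, 488 for AZGP1 and 140 for PIGR. In erlotinib-resistant cells the LCN2 level was lower than in vehicle by 4.21-fold and the AGR2 level by 1.51-fold. A link of the matches to these differences was not tested. Capitals mark matches to an NF-kB motif, to the C/EBP motif TTGCNNAA and to ATAAATA, a string chosen after the sequences were seen. The LCN2 window lies at chr9:128149203-128149502 on the plus strand and the AGR2 window at chr7:16804950-16805249 on the minus strand.
LCN2: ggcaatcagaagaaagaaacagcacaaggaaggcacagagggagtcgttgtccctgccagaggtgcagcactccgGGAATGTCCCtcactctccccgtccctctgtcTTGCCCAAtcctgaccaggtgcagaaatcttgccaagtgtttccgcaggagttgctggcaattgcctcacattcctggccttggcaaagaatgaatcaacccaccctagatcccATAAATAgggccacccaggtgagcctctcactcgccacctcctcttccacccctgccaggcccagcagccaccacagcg
AGR2: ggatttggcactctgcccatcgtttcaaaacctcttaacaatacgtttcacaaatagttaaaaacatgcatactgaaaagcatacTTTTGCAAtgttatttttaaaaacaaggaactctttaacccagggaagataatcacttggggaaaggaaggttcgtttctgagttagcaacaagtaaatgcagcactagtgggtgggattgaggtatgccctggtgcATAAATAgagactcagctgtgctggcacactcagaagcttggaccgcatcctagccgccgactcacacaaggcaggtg
The LCN2 window held an NF-kB match starting 175 bases before the gene's start and a C/EBP match 143 bases before it, and the AGR2 window a C/EBP match 165 bases before its start and no NF-kB match. ATAAATA began 29 bases before the start of LCN2 and 28 before that of AGR2. Counted on both strands, an NF-kB match stood in 13.0% of the 10329 promoters of genes that passed the filter, a C/EBP match in 6.91% and ATAAATA in 2.50%. Over all 27305 RefSeq promoters of this length the shares were 10.8%, 10.6% and 5.14%. None of the 3 strings was found in the AZGP1 or PIGR window. A match is a string of letters, not a shown binding site.

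The 4 promoters were poor in CpG. The ratio of CpG found to CpG expected from base composition was 0.255 for LCN2, 0.420 for AGR2, 0.0501 for AZGP1 and 0.232 for PIGR. The median over the promoters of genes that passed the filter was 0.843, and 17.0% of them lay under 0.6, as did all 4 of these. Their GC content was 57.3% for LCN2, 43.7% for AGR2, 52.7% for AZGP1 and 53.7% for PIGR, against a median of 65.3%.

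Together the 10 genes summed to 118 FPKM in dual-resistant cells, 3688 FPKM in erlotinib-resistant cells and 15326 FPKM in vehicle-treated cells. That is 0.0238% of all FPKM in dual-resistant, 0.697% in erlotinib-resistant and 2.57% in vehicle-treated cells. LCN2 alone made up 66.8% of the sum of the 10 genes in dual-resistant, 84.3% in erlotinib-resistant and 85.4% in vehicle-treated cells. Without LCN2 the other 9 genes summed to 39.2 FPKM in dual-resistant cells, 580 in erlotinib-resistant and 2237 in vehicle-treated cells. The median level of the 10 genes was 0.812 FPKM in dual-resistant cells, 53.8 in erlotinib-resistant cells and 183 in vehicle-treated cells. At least 10 FPKM was reached by 2 of them in dual-resistant cells, LCN2 and SAA1, by 8 in erlotinib-resistant cells and by 9 in vehicle-treated cells.

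**Figure D1:**
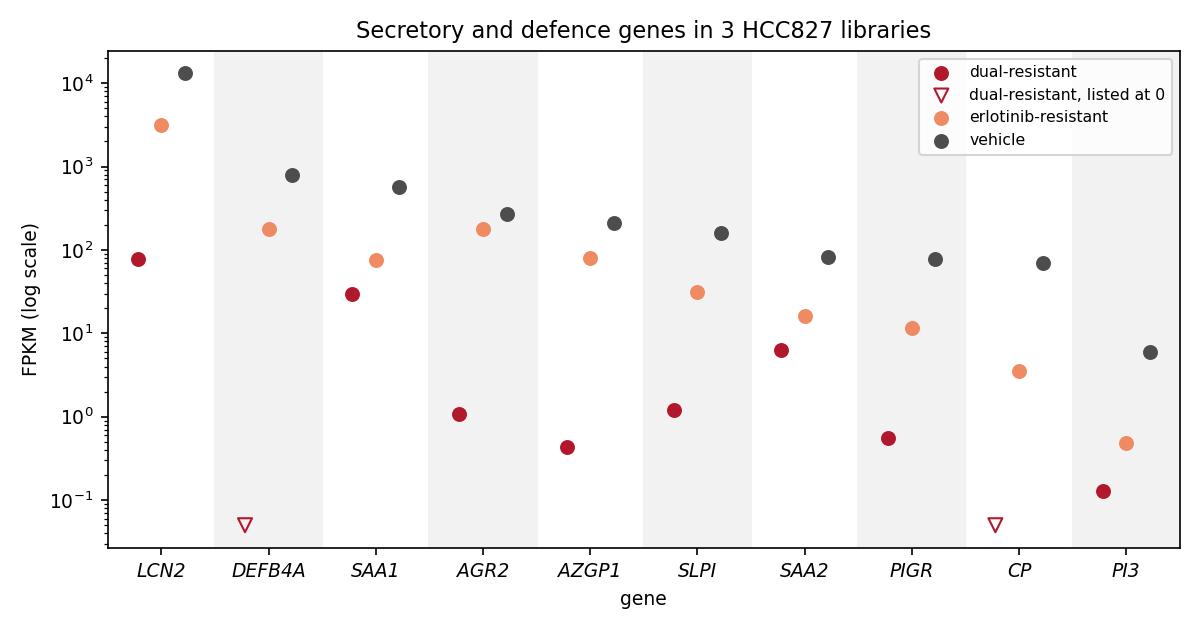
FPKM of each of the 10 genes on a log scale, with 1 point per library and genes ordered by their vehicle level; triangles at the bottom mark a value listed at 0, which has no place on a log axis. Every gene is lowest in dual-resistant cells and highest in vehicle-treated cells, from LCN2 at 78.8 FPKM in dual-resistant, 3107 in erlotinib-resistant and 13089 in vehicle-treated cells down to PI3 at 0.128 FPKM in dual-resistant, 0.480 in erlotinib-resistant and 6.03 in vehicle-treated cells.

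All 10 genes kept the same order of libraries, with dual-resistant cells lowest and vehicle-treated cells highest. For DEFB4A and CP the lowest value was a listed 0, which may be a failed estimate. How many of all genes share this order was not counted, so nothing is read from it. Differences were taken on log2(FPKM + 1), which understates those of low genes, and a gene was called lower or higher at 2-fold or more on that scale. Folds given for single genes of the 10 are instead ratios of their FPKM, with nothing added. In erlotinib-resistant cells against vehicle 9 of the 10 genes were lower, where 6.03% of the 13381 genes compared were lower, and AGR2 was within the limit. Of the same genes 9 were lower in dual-resistant cells against erlotinib-resistant cells, where 7.22% of 13385 genes were lower, and PI3 was within the limit. PI3 passed the filter only through vehicle-treated cells, so it had to stand lower in the resistant populations. All 10 were lower in dual-resistant cells against vehicle, where 10.4% of 13378 genes were lower. With genes listed at 0 left out, DEFB4A and CP dropped from both comparisons of dual-resistant cells. Then 7 of 8 were lower against erlotinib-resistant cells, where 855 of 13051 genes were lower. Against vehicle 8 of 8 were lower, where 1225 of 13039 genes were lower. None of the 10 was higher in any of these comparisons. The share of all genes that were higher was 3.81% in erlotinib-resistant cells against vehicle, 10.1% in dual-resistant against erlotinib-resistant cells and 11.0% in dual-resistant cells against vehicle. Since the genes were picked with these values known, nothing is read from the counts. Their median log2 difference was -2.26 in erlotinib-resistant cells against vehicle, -3.44 in dual-resistant against erlotinib-resistant cells and -6.16 in dual-resistant cells against vehicle, where the medians of all genes were 0.00, -0.03 and -0.01. Without DEFB4A and CP, both listed at 0 in dual-resistant cells, the second median was again -3.44 and the third was -5.92.

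The comparisons share libraries, so they are not independent of each other. The genes nearest the limit in erlotinib-resistant cells against vehicle were AZGP1 inside it, at -1.36, and AGR2 outside it, at -0.60. Between the 2 resistant populations SAA2 lay inside, at -1.24, and PI3 outside, at -0.39. Scaling each library to the same sum of FPKM moved the median of all genes by 0.14 in erlotinib-resistant cells against vehicle and by 0.24 in dual-resistant cells against vehicle, and left each of the 10 genes on the same side of the limit. With that scaling, higher genes made up 53.7% of calls in erlotinib-resistant cells against vehicle, where they made up 38.7% of calls without it. For dual-resistant cells against vehicle the share was 66.1% with the scaling and 51.3% without it.

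**Figure D2:**
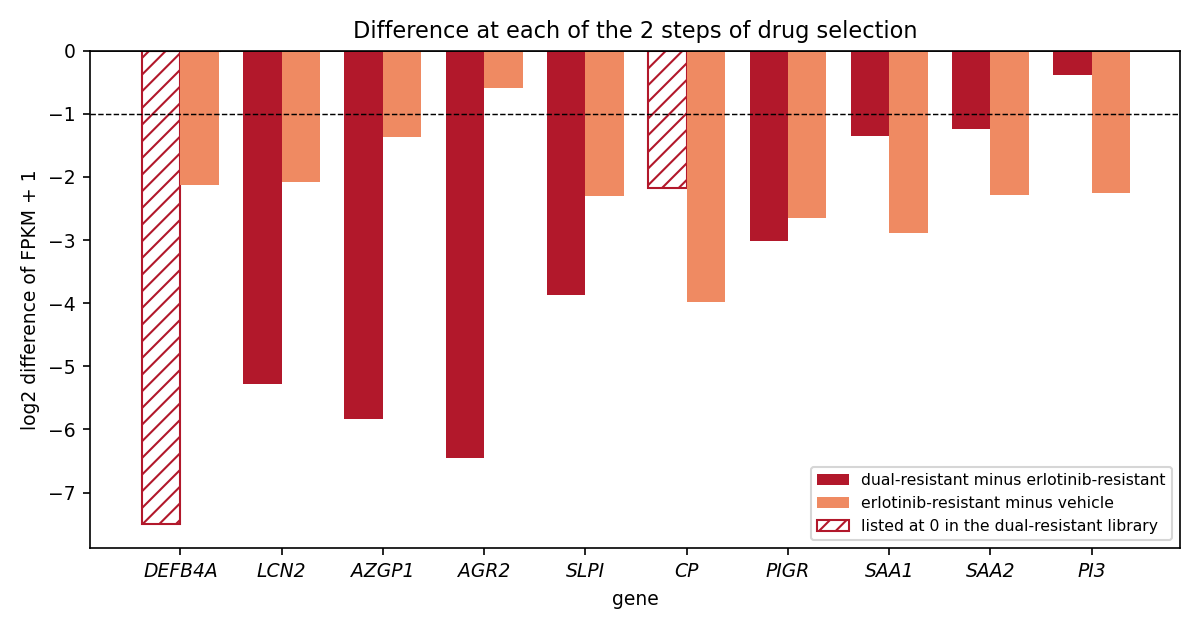
Log2 difference of FPKM + 1 for each gene, dual-resistant minus erlotinib-resistant (left bar) and erlotinib-resistant minus vehicle (right bar), with the 2-fold limit dashed; hatched bars mark genes listed at 0 in dual-resistant cells, whose bar length depends on the pseudocount. AGR2 differs by -6.45 in the left bar and -0.60 in the right, and PI3 by -0.39 in the left and -2.25 in the right.

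LCN2 and DEFB4A act on microbes. LCN2 encodes lipocalin 2, a secreted protein that binds bacterial siderophores and so withholds iron (Entrez ID 3934, chromosome 9, 130911732 to 130915734, GRCh37, as for all coordinates from the deposited table). LCN2 stood at 78.8 FPKM in dual-resistant cells, 3107 in erlotinib-resistant cells and 13089 in vehicle-treated cells. In vehicle-treated cells it was the highest of all genes, above RPS18 at 5930 FPKM, and there it accounted for 2.20% of summed FPKM. It ranked 12 in erlotinib-resistant cells and 966 in dual-resistant cells. LCN2 was 39.4-fold lower in dual-resistant than in erlotinib-resistant cells and 166-fold lower than in vehicle, yet at 78.8 FPKM it was still the highest of the 10 genes.

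DEFB4A encodes beta-defensin 2, a cationic antimicrobial peptide (Entrez ID 1673, chromosome 8, 7752199 to 7754237). It was listed at 0 in dual-resistant cells and stood at 180 FPKM in erlotinib-resistant cells and 788 FPKM in vehicle-treated cells, a 4.37-fold lower level in erlotinib-resistant than in vehicle-treated cells. DEFB4B, a near-identical copy, was listed at 0 in dual-resistant cells and stood at 4.61 FPKM in erlotinib-resistant and 14.3 FPKM in vehicle-treated cells. Reads cannot be assigned with certainty between the copies, so their split is uncertain. Summed, the copies stood at 185 FPKM in erlotinib-resistant and 802 FPKM in vehicle-treated cells. No fold is given against the value of 0.

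SLPI and PI3 encode protease inhibitors of the WAP family that block neutrophil elastase, and PI3, or elafin, is also anchored to the matrix by transglutaminases. Both lie on chromosome 20, SLPI (Entrez ID 6590) at 43880879 to 43883206 and PI3 (Entrez ID 5266) at 43803540 to 43805185. SLPI stood at 1.20 FPKM in dual-resistant cells, 31.1 in erlotinib-resistant cells and 157 in vehicle-treated cells. It was 26.0-fold lower in dual-resistant than in erlotinib-resistant cells and 5.06-fold lower in erlotinib-resistant than in vehicle-treated cells. PI3 was the least abundant of the 10 in erlotinib-resistant and in vehicle-treated cells, at 0.128 FPKM in dual-resistant cells, 0.480 in erlotinib-resistant cells and 6.03 in vehicle-treated cells. These PI3 values rested on about 3.17 fragments in dual-resistant, 13.1 in erlotinib-resistant and 238 in vehicle-treated cells, so the difference between the resistant populations rests on few fragments.

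Among the 8 genes above 0 in every library, AGR2 and AZGP1 had the 2 largest log2 differences between the resistant populations, at -6.45 and -5.84, while with a pseudocount of 5 that of LCN2 was larger than both, at -5.21. AGR2 encodes a protein disulfide isomerase of the endoplasmic reticulum that is needed for mucin production in the mouse intestine (Entrez ID 10551, chromosome 7, 16832264 to 16844738). AGR2 stood at 1.07 FPKM in dual-resistant cells, 180 in erlotinib-resistant cells and 273 in vehicle-treated cells. It was 168-fold lower in dual-resistant than in erlotinib-resistant cells and 1.51-fold lower in erlotinib-resistant than in vehicle-treated cells, and it was the only one of the 10 within 2-fold of vehicle in erlotinib-resistant cells. AZGP1 encodes zinc-alpha-2-glycoprotein, a secreted protein with the fold of an MHC class I molecule (Entrez ID 563, chromosome 7, 99564350 to 99573735). AZGP1 stood at 0.428 FPKM in dual-resistant cells, 80.5 in erlotinib-resistant cells and 209 in vehicle-treated cells. It was 188-fold lower in dual-resistant than in erlotinib-resistant cells and 2.59-fold lower in erlotinib-resistant than in vehicle-treated cells. Their low values in dual-resistant cells rested on about 81.9 fragments for AGR2 and 24.1 for AZGP1.

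SAA1 and SAA2 encode acute-phase serum amyloid A, lipid-binding proteins made in bulk by the liver and also by epithelia during inflammation. The genes are close paralogs on chromosome 11, SAA1 (Entrez ID 6288) at 18287808 to 18291523 and SAA2 (Entrez ID 6289) at 18259780 to 18270221. SAA1 stood at 29.5 FPKM in dual-resistant cells, 76.5 in erlotinib-resistant cells and 574 in vehicle-treated cells. SAA2 stood at 6.33 FPKM in dual-resistant cells, 16.3 in erlotinib-resistant cells and 82.8 in vehicle-treated cells. Their ratio was 4.65 in dual-resistant cells, 4.70 in erlotinib-resistant and 6.93 in vehicle-treated cells, and reads shared by the paralogs could move it. The row SAA2-SAA4, which overlaps SAA2, stood at 1.22 FPKM in dual-resistant, 2.48 in erlotinib-resistant and 15.5 in vehicle-treated cells. SAA1 was 2.60-fold lower in dual-resistant than in erlotinib-resistant cells and 7.504-fold lower in erlotinib-resistant than in vehicle-treated cells. SAA2 was 2.57-fold lower in dual-resistant than in erlotinib-resistant cells and 5.09-fold lower in erlotinib-resistant than in vehicle-treated cells. Both genes thus differed more between erlotinib-resistant and vehicle-treated cells than between the 2 resistant populations, the opposite of LCN2, AGR2 and AZGP1.

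PIGR encodes the polymeric immunoglobulin receptor, which carries IgA across the epithelium and is shed with it (Entrez ID 5284, chromosome 1, 207101867 to 207119811). PIGR stood at 0.554 FPKM in dual-resistant cells, 11.6 in erlotinib-resistant cells and 77.6 in vehicle-treated cells. It was 20.9-fold lower in dual-resistant than in erlotinib-resistant cells and 6.72-fold lower in erlotinib-resistant than in vehicle-treated cells. CP encodes ceruloplasmin, a copper-binding ferroxidase of plasma and airway fluid (Entrez ID 1356, chromosome 3, 148880569 to 148939832). CP was listed at 0 in dual-resistant cells and stood at 3.54 FPKM in erlotinib-resistant cells and 70.3 in vehicle-treated cells. Its level in erlotinib-resistant cells was 19.9-fold lower than in vehicle, against 1.51-fold for AGR2 to 12.6-fold for PI3 among the other 9 genes. CP overlaps HPS3, which stood at 18.7 FPKM in dual-resistant, 22.8 in erlotinib-resistant and 16.8 in vehicle-treated cells, and the strand of the libraries is not given in the sources used here.

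**Figure D3:**
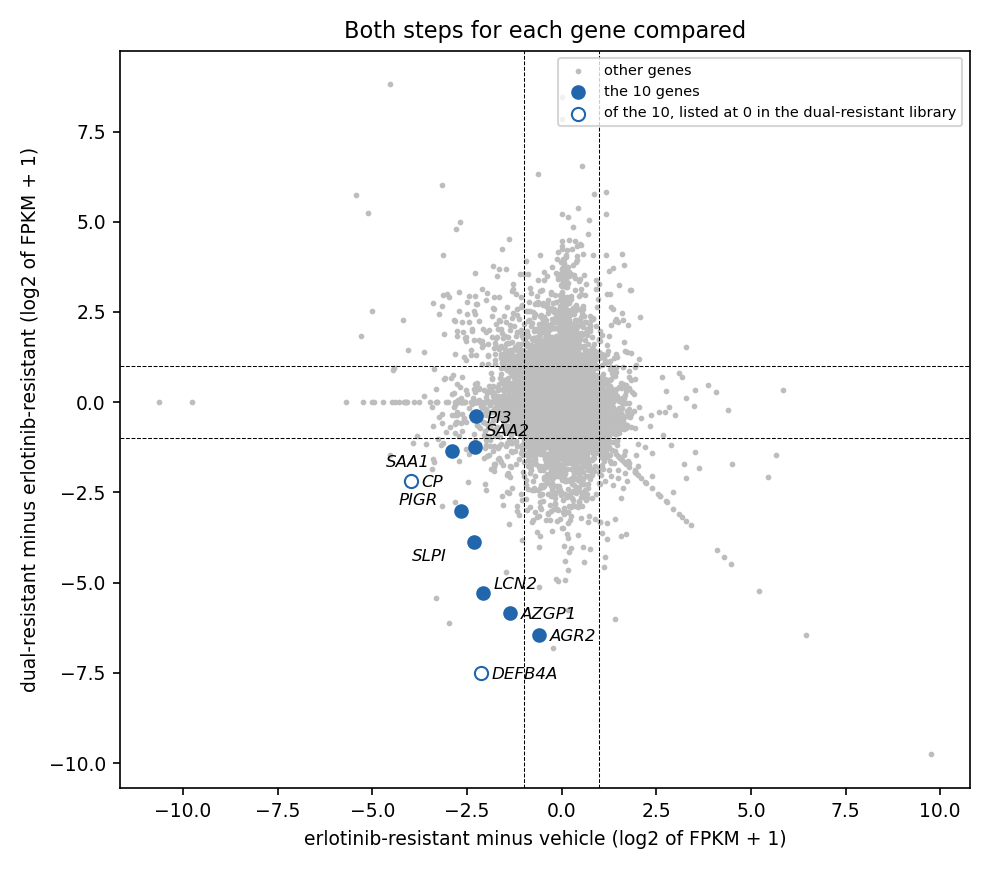
Each gene compared, with the log2 difference of FPKM + 1 of erlotinib-resistant minus vehicle-treated cells on the x axis and of dual-resistant minus erlotinib-resistant cells on the y axis; both axes use erlotinib-resistant cells, so they are not independent. The 10 genes (blue) run from AGR2 and DEFB4A at the bottom to PI3, SAA1 and SAA2 near the left edge of the cloud, with open circles for DEFB4A and CP, listed at 0 in dual-resistant cells.

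The genes differed in which of the 2 differences was larger. LCN2, SLPI, AGR2, AZGP1 and PIGR had the larger log2 difference between the 2 resistant populations, by a margin that ran from 0.37 for PIGR to 5.85 for AGR2. The place of PIGR depended on the pseudocount. With a pseudocount of 5 its log2 difference was -1.58 between the resistant populations and -2.32 in erlotinib-resistant cells against vehicle, and with 0.1 it was -4.16 and -2.74. SAA1, SAA2 and PI3 had the larger one between erlotinib-resistant and vehicle-treated cells. CP and DEFB4A, listed at 0 in dual-resistant cells, cannot be placed by this measure.

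The genes whose 2 log2 differences lay nearest to those of 4 of the 10 genes were looked up among 12955 other genes above 0 in every library. The measure was the Euclidean distance over these 2 differences, which rest on only 3 libraries. Nearest to LCN2 was DUSP6, a MAP kinase phosphatase, at a distance of 0.84, then S100P at 1.23 and S100A9, a calcium-binding alarmin, at 1.26. Nearest to PIGR were C8orf4 at 0.30, PRODH, which encodes proline dehydrogenase, at 0.53, and CEACAM5, a carcinoembryonic antigen gene, at 0.83. SAA1 had as neighbours in this sense the chemokine gene CXCL17 at 0.33, the complement factor gene CFB at 0.34 and the interferon-induced gene IFI44L at 0.36. Because 1 FPKM is added, differences of low genes are understated, and a small distance need not mean similar FPKM ratios. CXCL17 stood at 0.0672 FPKM in dual-resistant, 1.33 in erlotinib-resistant and 19.5 in vehicle-treated cells. In dual-resistant cells S100P stood at 0.341 FPKM and S100A9 at 0.388. SLPI lay farther from its nearest gene than the other 3 did, with the protease inhibitor gene SERPINA3 at 1.04, DUSP6 at 1.18 and C8orf4 at 1.21.

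The neighbours of the 10 genes on the chromosome showed other values. Taking the nearest 2 genes on each side that passed the filter, and leaving out the 10 genes themselves, there were 33 neighbours. Of these, 7 were lower and 4 higher in dual-resistant cells against vehicle, with a median log2 difference of 0.06, where 10.4% of all genes were lower and 11.0% higher. The 7 were the relatives DEFB4B, DEFB1 and SAA2-SAA4, and uc021wef at -2.26, LOC100289019 at -1.44, GJC3 at -1.19 and C1orf116 at -1.07. Of these uc021wef, the nearest left neighbour of PI3, stood at 3.80 FPKM in vehicle-treated cells and was listed at 0 in both resistant populations, while PI3 itself differed by -2.64. Around LCN2, the neighbours LOC100289019, PTGES2, C9orf16 and CIZ1 differed by -1.44, -0.29, -0.29 and 0.06 in dual-resistant cells against vehicle, where LCN2 differed by -7.36. Around AGR2, whose own difference was -7.05, TSPAN13 differed by -0.96, BZW2 by 0.26 and AHR by 0.71. SDC4, to the right of SLPI and PI3, differed by -0.38, and STK4, to the left of PI3, by 1.14. Of the 33 neighbours 3 were lower and 3 higher in erlotinib-resistant cells against vehicle, where 6.03% of all genes were lower and 3.81% higher. In dual-resistant against erlotinib-resistant cells 4 were lower and 1 higher, where 7.22% of all genes were lower and 10.1% higher.

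**Figure D4:**
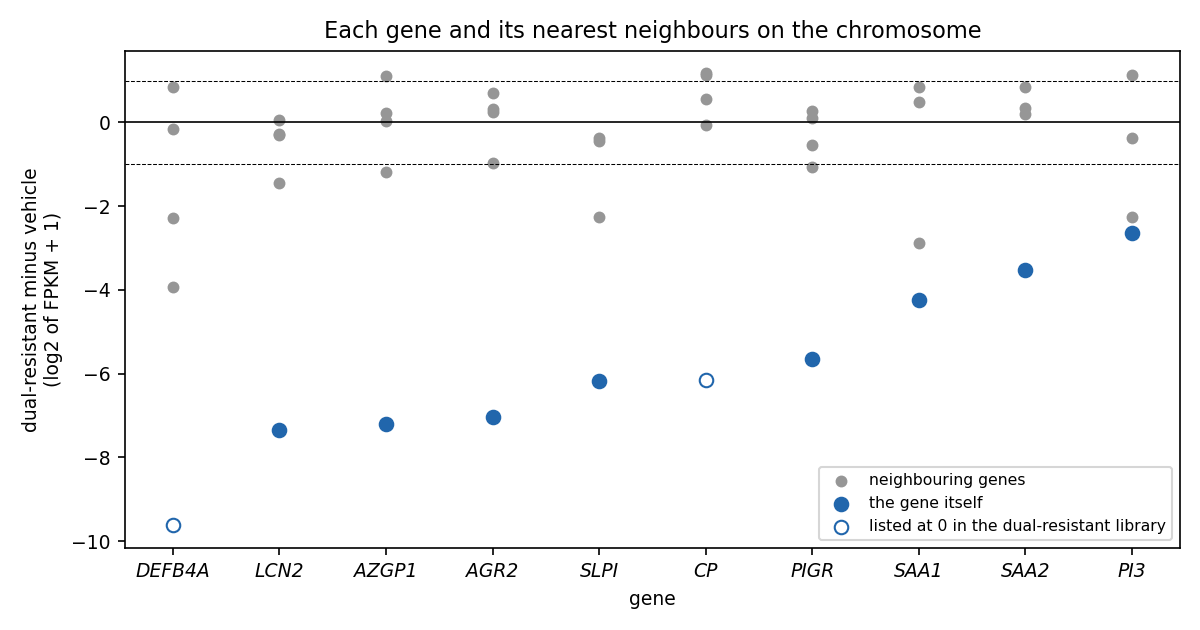
Log2 difference of FPKM + 1, dual-resistant minus vehicle, for each of the 10 genes (blue, open where listed at 0 in dual-resistant cells) and for its nearest neighbours on the chromosome that are not among the 10 (grey); dashed lines mark the 2-fold limit. Each of the 10 lies below all of its neighbours, with LCN2 at -7.36 and its neighbours between -1.44 and 0.06.

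Genes with related roles were described from 8 lists, which were also chosen with earlier results of these data known. The counts are over list genes that passed the filter, and a gene that passed it through 1 population only had to be lower in the others, so the counts are descriptions. Of 22 other epithelial antimicrobial genes in the table, 10 passed the filter, and 4 of the 10 were listed at 0 in dual-resistant cells. In erlotinib-resistant cells against vehicle 8 of the 10 were lower and none higher (median -2.27). In dual-resistant cells against erlotinib-resistant cells 5 were lower and none higher (median -1.06). Of all genes 6.03% were lower and 3.81% higher in the first of these comparisons, and 7.22% and 10.1% in the second. CAMP, S100A8 and PGLYRP4 passed the filter only through vehicle-treated cells. S100A9 stood at 0.388 FPKM in dual-resistant cells, 58.7 in erlotinib-resistant and 598 in vehicle-treated cells. The chemokine CCL20, which is itself antimicrobial, stood at 0.553 FPKM in dual-resistant, 3.28 in erlotinib-resistant and 97.8 in vehicle-treated cells, and RNASE7, an antimicrobial ribonuclease, at 0.0513 FPKM in dual-resistant, 1.03 in erlotinib-resistant and 12.2 in vehicle-treated cells. S100A7 was listed at 0 in dual-resistant cells and stood at 1.26 FPKM in erlotinib-resistant and 19.5 FPKM in vehicle-treated cells. DEFB1, the constitutive beta-defensin, stood at 0.337 FPKM in dual-resistant cells, 7.98 in erlotinib-resistant and 5.49 in vehicle-treated cells, so that, like AGR2, it was within 2-fold of vehicle in erlotinib-resistant cells.

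Few of the classical club, goblet and gland genes were expressed, and 6 of 19 passed the filter. In erlotinib-resistant cells against vehicle 4 of the 6 were lower and none higher (median -1.49). In dual-resistant cells against vehicle 4 were lower and 1 higher (median -1.76). Of all genes 6.03% were lower and 3.81% higher in the first of these comparisons, and 10.4% and 11.0% in the second. All of the 6 but CLU passed the filter only through vehicle-treated cells, so they had to be lower in the resistant populations. Of the 6, 2 were listed at 0 in erlotinib-resistant cells. Nothing is read from these counts. FCGBP stood at 0.189 FPKM in dual-resistant cells, 0.765 in erlotinib-resistant and 3.35 in vehicle-treated cells. SCGB2A1, a secretoglobin, and MSMB stood at 2.52 and 2.87 FPKM in vehicle, where AGR3, the paralog of AGR2, stood at 0.715 FPKM. BPIFA1, a secreted protein of the upper airway, had the highest vehicle level of the 6, at 12.5 FPKM, and was listed at 0 in both resistant populations. The 1 higher gene was CLU, which encodes the chaperone clusterin, at 41.3 FPKM in dual-resistant cells, 1.71 in erlotinib-resistant and 1.63 in vehicle-treated cells.

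Of the other secreted protease inhibitors and WFDC genes, 11 of 24 passed the filter. Between the resistant populations 5 of the 11 were lower in dual-resistant cells and none higher (median -0.94). In erlotinib-resistant cells against vehicle 3 were lower and 1 higher (median -0.51). Of all genes 7.22% were lower and 10.1% higher in the first of these comparisons, and 6.03% and 3.81% in the second. CSTA passed the filter only through vehicle-treated cells. WFDC2, a WAP family gene like SLPI and PI3, stood at 3.35 FPKM in dual-resistant cells, 7.37 in erlotinib-resistant and 30.5 in vehicle-treated cells. SERPINA3, an acute-phase serpin, stood at 0.861 FPKM in dual-resistant, 18.2 in erlotinib-resistant and 49.3 in vehicle-treated cells. SERPINB1, an intracellular inhibitor of neutrophil proteases, stood at 28.2 FPKM in dual-resistant cells, 164 in erlotinib-resistant and 165 in vehicle-treated cells. SPINT1, which inhibits membrane serine proteases, stood at 18.9 FPKM in dual-resistant, 107 in erlotinib-resistant and 183 in vehicle-treated cells.

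Other acute-phase and complement genes were measured beside SAA1 and SAA2. Of 22, 9 passed the filter, and 6 of the 9 were lower in erlotinib-resistant cells against vehicle and none higher (median -1.03). Of all genes 6.03% were lower and 3.81% higher there. Among the 6, FGG at -1.009 and C1R at -1.033 lay close to the limit. With libraries scaled to the same sum 4 genes of this list were called there, where 1381 of 13402 genes compared were called. Against erlotinib-resistant cells, 7 of the 9 were higher in dual-resistant cells, where 10.1% of all genes were higher, and 1 was lower (median 1.304). One of the 7, CRP, passed the filter only through dual-resistant cells, at 1.83 FPKM there, 0.167 in erlotinib-resistant and 0.00735 in vehicle-treated cells. The complement protease gene C1S stood at 23.6 FPKM in dual-resistant cells, 3.85 in erlotinib-resistant and 11.1 in vehicle-treated cells, and the fibrinogen gene FGB at 24.5 FPKM in dual-resistant, 0.335 in erlotinib-resistant and 2.99 in vehicle-treated cells. C3, the central complement component, stood at 5.28 FPKM in dual-resistant cells, 1.54 in erlotinib-resistant and 12.3 in vehicle-treated cells. The 1 lower gene was CFB, at 35.4 FPKM in dual-resistant, 111 in erlotinib-resistant and 725 in vehicle-treated cells. In dual-resistant cells against vehicle 3 of the 9 were higher and 2 lower (median 0.80), where 11.0% of all genes were higher and 10.4% lower. SAA4 was listed at 0 in the 3 libraries.

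Transcription regulators of secretory and defence genes were nearly all expressed. Of 27, 25 passed the filter. In erlotinib-resistant cells against vehicle 4 of the 25 were lower and 1 higher (median -0.20). Of all genes 6.03% were lower and 3.81% higher there. With libraries scaled to the same sum 2 of the 25 were called in all, where 1381 of 13402 genes compared were called. Dual-resistant cells had 6 lower and 2 higher against erlotinib-resistant cells (median -0.37), and 11 lower and 2 higher against vehicle (median -0.78). Of all genes 7.22% were lower and 10.1% higher in the first of these comparisons, and 10.4% and 11.0% in the second. Among the higher genes, CREB3L1 passed the filter only through dual-resistant cells. CEBPB stood at 59.6 FPKM in dual-resistant cells, 94.3 in erlotinib-resistant and 213 in vehicle-treated cells, and CEBPD at 37.8 FPKM in dual-resistant, 89.5 in erlotinib-resistant and 191 in vehicle-treated cells. Of the NF-kB subunit genes, NFKB1, NFKB2, RELA and RELB were within 2-fold in each comparison, at 23.2 FPKM in dual-resistant, 20.3 in erlotinib-resistant and 19.5 in vehicle-treated cells for NFKB1 and 63.8 FPKM in dual-resistant, 50.3 in erlotinib-resistant and 51.2 in vehicle-treated cells for RELA. The subunit gene REL was higher in erlotinib-resistant cells against vehicle, at 2.74 FPKM in dual-resistant, 5.48 in erlotinib-resistant and 1.70 in vehicle-treated cells. NFKBIA, which encodes an NF-kB inhibitor, stood at 72.5 FPKM in dual-resistant, 93.3 in erlotinib-resistant and 188 in vehicle-treated cells. Its log2 difference against vehicle was -1.36 in dual-resistant cells. In erlotinib-resistant cells it was -1.001, so that NFKBIA was only just called lower there. The epithelial ETS factor EHF stood at 2.61 FPKM in dual-resistant cells, 23.0 in erlotinib-resistant and 32.5 in vehicle-treated cells. SPDEF, a factor of goblet cells, stood at 0.202 FPKM in dual-resistant, 5.06 in erlotinib-resistant and 7.33 in vehicle-treated cells, and GRHL2, a factor of epithelial identity, at 2.44 FPKM in dual-resistant, 19.2 in erlotinib-resistant and 18.0 in vehicle-treated cells. Like AGR2, the last 3 factors were within 2-fold of vehicle in erlotinib-resistant cells. CREB3L1 was higher, at 8.02 FPKM in dual-resistant cells, 0.228 in erlotinib-resistant and 0.151 in vehicle-treated cells.

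**Figure D5:**
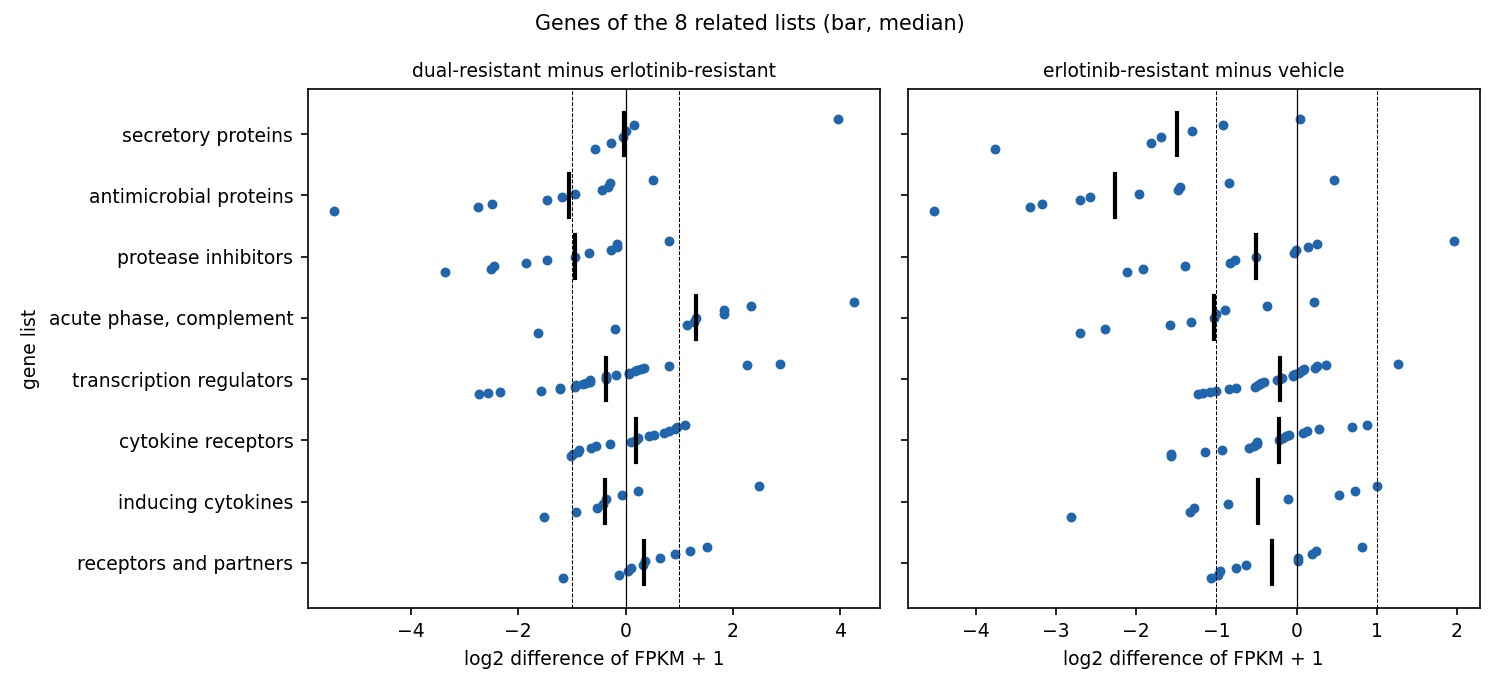
Log2 difference of FPKM + 1 for the genes of the 8 related lists that passed the filter, dual-resistant minus erlotinib-resistant on the left and erlotinib-resistant minus vehicle on the right; each point is a gene, black bars are list medians and dashed lines the 2-fold limits. The acute-phase and complement median is 1.304 on the left and -1.03 on the right, while the antimicrobial median is -1.06 on the left and -2.27 on the right.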

How the data were processed

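RNA sequencing of 3 populations of a human cancer cell line was used, with 1 library each. The deposited values are FPKM per gene. Per the submitters' processing notes, the tools were TopHat 1.3 and Cufflinks 1.3, with GRCh37 as the build. Which gene set, strand setting and options were used is not given in the sources used here.

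Of the 31402 rows, those sharing a symbol were summed and missing cells were left out as missing. Starts were taken to count from 0 and are given from 1. Differences are log2(FPKM + 1) between libraries, for genes that reached 1 FPKM in some library, and a difference of 1 or more, up or down, was called. Python 3.11.15, pandas 2.3.3 and numpy 2.4.6 were used. The difference and call were run on simulated data with counting noise alone and changes larger than 2-fold in well-expressed genes. That run checks the computation and does not test the 2-fold limit with 1 library per population. The depth is not known from FPKM alone. It was approximated by percentile 1 of FPKM times length over protein-coding genes with a single exon and a length between 1 and 5 kb, and fragments behind a value by GENCODE 29 transcript lengths.

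The genes and lists were chosen with earlier results of these data known. Named were the 10 genes, up to 4 genes per list with the largest difference among libraries where they were above 0, and relatives of the 10 genes. NFKB1, NFKB2, RELA, RELB, REL, NFKBIA, CEBPB, CEBPD, BPIFA1 and CRP were named after their values were seen. Alternatives of scaling, pseudocount, filter, row choice and limit were tried.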

Additional observations from a re-analysis of the deposited data

How the results depend on the processing

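Of the 269 values of the 10 genes under other settings, 263 stayed on their side of the limit, 5 were no longer called and 1 was newly called. Much of this was fixed in advance. Each gene had 1 row and passed every filter on its level, so the settings of filter, row choice and limit left its value unchanged. Leaving out genes listed at 0 dropped DEFB4A and CP from both comparisons of dual-resistant cells, where 8 of the 10 genes were compared. It left the remaining values unchanged. A pseudocount cannot reverse a direction, and scaling reversed none. With a pseudocount of 5, SAA2 and CP were no longer called in dual-resistant against erlotinib-resistant cells, at -0.91 and -0.77, and with 0.1 PI3 was called, at -1.35. At a 4-fold limit AZGP1 was no longer called in erlotinib-resistant cells against vehicle, nor SAA1 and SAA2 in dual-resistant against erlotinib-resistant cells. Over all genes, 1317 were called in erlotinib-resistant cells against vehicle, 2031 with a pseudocount of 0.1, 522 with 5 and 271 at 4-fold. In dual-resistant cells against erlotinib-resistant cells 2324 were called, 1049 with a pseudocount of 5 and 642 at 4-fold. In dual-resistant cells against vehicle 2867 were called, 1433 with a pseudocount of 5 and 892 at 4-fold. The 24 counts of called list genes, 8 lists in 3 comparisons, moved by over 1.5 times in 3 cases with libraries scaled to the same sum (2 fewer, 1 more), in 5 with a pseudocount of 0.1 (all more), in 13 with 5, in 4 without genes listed at 0 and in 20 at 4-fold (all fewer), and in none under the other settings. Summing DEFB4A with DEFB4B, chosen after the values were seen, changed no call. A larger pseudocount or limit calls fewer genes by construction. No paired analysis was possible because each population had 1 library, and no library could be left out. Values under about 0.5 FPKM in short transcripts rest on few fragments.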

Other observations

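Cytokines that can switch on defence genes went both ways. Of 13 inducing cytokines 8 passed the filter, and in dual-resistant cells against vehicle 4 of the 8 were lower and 1 higher (median -0.94). Of all genes 10.4% were lower and 11.0% higher there. Among the lower cytokines, IL17C and IL36G passed the filter only through vehicle-treated cells. IL36G, an epithelial cytokine of the IL-1 family, stood at 0.128 FPKM in dual-resistant cells, 0.453 in erlotinib-resistant and 9.21 in vehicle-treated cells. IL1A stood at 5.66 FPKM in dual-resistant, 17.96 in erlotinib-resistant and 33.2 in vehicle-treated cells and IL1B at 6.53 FPKM in dual-resistant, 13.3 in erlotinib-resistant and 34.8 in vehicle-treated cells. IL6, an inducer of the acute phase in liver, was higher, at 39.1 FPKM in dual-resistant cells, 6.21 in erlotinib-resistant and 4.00 in vehicle-treated cells, while SAA1 was lowest in dual-resistant cells. Of 21 cytokine receptors and adaptors 17 passed the filter. In dual-resistant cells against vehicle 2 of the 17 were lower, IFNGR1 and IL17RE, and 1 higher (median -0.30). These counts are near the shares of all genes, 10.4% lower and 11.0% higher, and nothing is read from them. IFNGR1, a receptor chain for interferon gamma, stood at 17.6 FPKM in dual-resistant cells, 21.8 in erlotinib-resistant and 66.9 in vehicle-treated cells.

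Of 20 receptors, ligands and partners of the 10 proteins in the table, 10 passed the filter. In dual-resistant cells against vehicle 1 of these was lower and 2 higher (median 0.29). Of all genes 10.4% were lower and 11.0% higher there, and nothing is read from these counts. SLC22A17, a reported receptor of LCN2, stood at 2.41 FPKM in dual-resistant cells, 0.191 in erlotinib-resistant and 0.179 in vehicle-treated cells. It was thus highest in dual-resistant cells, where LCN2 was lowest, and passed the filter only through them. Its low values in erlotinib-resistant and vehicle-treated cells hardly differed, by a log2 difference of 0.015. TGM2, a transglutaminase of the family that anchors elafin, stood at 13.1 FPKM in dual-resistant, 30.7 in erlotinib-resistant and 52.4 in vehicle-treated cells. SCARB1, a lipoprotein receptor that also binds serum amyloid A, stood at 62.1 FPKM in dual-resistant, 32.2 in erlotinib-resistant and 27.1 in vehicle-treated cells.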
